A study of Equus caballus with 4 samples.

Results

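The genes described here are those of the unfolded protein response and of the transcription factor ATF4, 35 named genes in all, in differentiating equine satellite cells incubated with gamma-oryzanol (GO). A probe was assigned to a gene when the gene name in the array files, in any case, was equal to the symbol, and 29 of the 35 genes were found this way, with 51 probes. On the whole array, 13349 different gene symbols were present. The other 6 genes (*HSPA5*, *HSP90B1*, *PDIA4*, *ERO1L*, *XBP1* and *CHAC1*) carried a transcript number or an older name, and were matched by the description of the probe in the same files. This second matching was chosen after the files were seen, so these 6 genes are given apart from the counts of the 29.

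The unfolded protein response is set off when unfolded proteins accumulate in the endoplasmic reticulum (ER). Its sensors in the ER membrane (products of *ERN1*, *EIF2AK3* and *ATF6*) activate the factors XBP1, ATF4 and ATF6, which induce chaperones and the machinery of ER-associated degradation (ERAD), while ATF4 also induces genes of amino acid synthesis and stress, and does so after amino acid shortage or other stresses as well. In myoblasts, this response is known to be active in a part of the cells during differentiation.

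Satellite cells are the muscle stem cells that lie beside the fibres. Here they came from *semitendinosus* muscle of young colts, in a cell line selected from those of several horses, and were taken through 2 days of differentiation. GO consists of ferulic acid esters and is obtained from rice bran oil. It was then given at a submicromolar dose for 24 h in DMSO, while control cells received the same dose of DMSO (0.04 µl/ml) alone. RNA of GO-treated cells (Cy5) and of control cells (Cy3) of the same replicate shared an array, with 4 arrays in total. The labels number the 4 pairs as biological replicates, although the descriptions of all 4 end in the tag of the first, and the sources do not state whether they were different horses or separate cultures of the selected line, so the p-values measure the spread between these samples only. Dyes were never exchanged, so effects of GO and of the dye cannot be told apart. All values below are log2 ratios, GO-treated cells over control, after the dye normalization (lowess) of the scanner software, and the gene's value is that of its brightest probe by the mean signal of both channels. The number of arrays limits their precision.

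Among the 29 genes matched by name, 27 had a probe well above background on all 4 arrays in at least one of the channels, and were tested. To be called changed, a gene had to reach a fold change of 1.3 in either direction (0.38 on the log2 scale), with the adjusted p no higher than 0.05. With these thresholds 2 of 27 were called, *HERPUD1* lower and *SESN2* higher in GO-treated cells. This share, 7.41%, was close to that of all tested probes, 8.94% (2399 of 26832, with 3.33% higher and 5.61% lower), and of all named genes, 8.72%. With each array only centred on its median and no lowess, 1740 probes were called higher and 1650 lower. An adjusted p of at most 0.05, without the fold change, was met by 3 of the 27 genes, with *MANF* added, and by 17.3% of named genes. The mean ratio was above 0 for 16 genes and below 0 for 11, and 19 genes did not have the same sign on all 4 arrays. The median over the 27 genes was 0.03, and that over all tested probes was 0.00. With the 6 genes matched by description, 33 genes were tested, and the same 2 genes were the ones called.

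**Figure D1:**
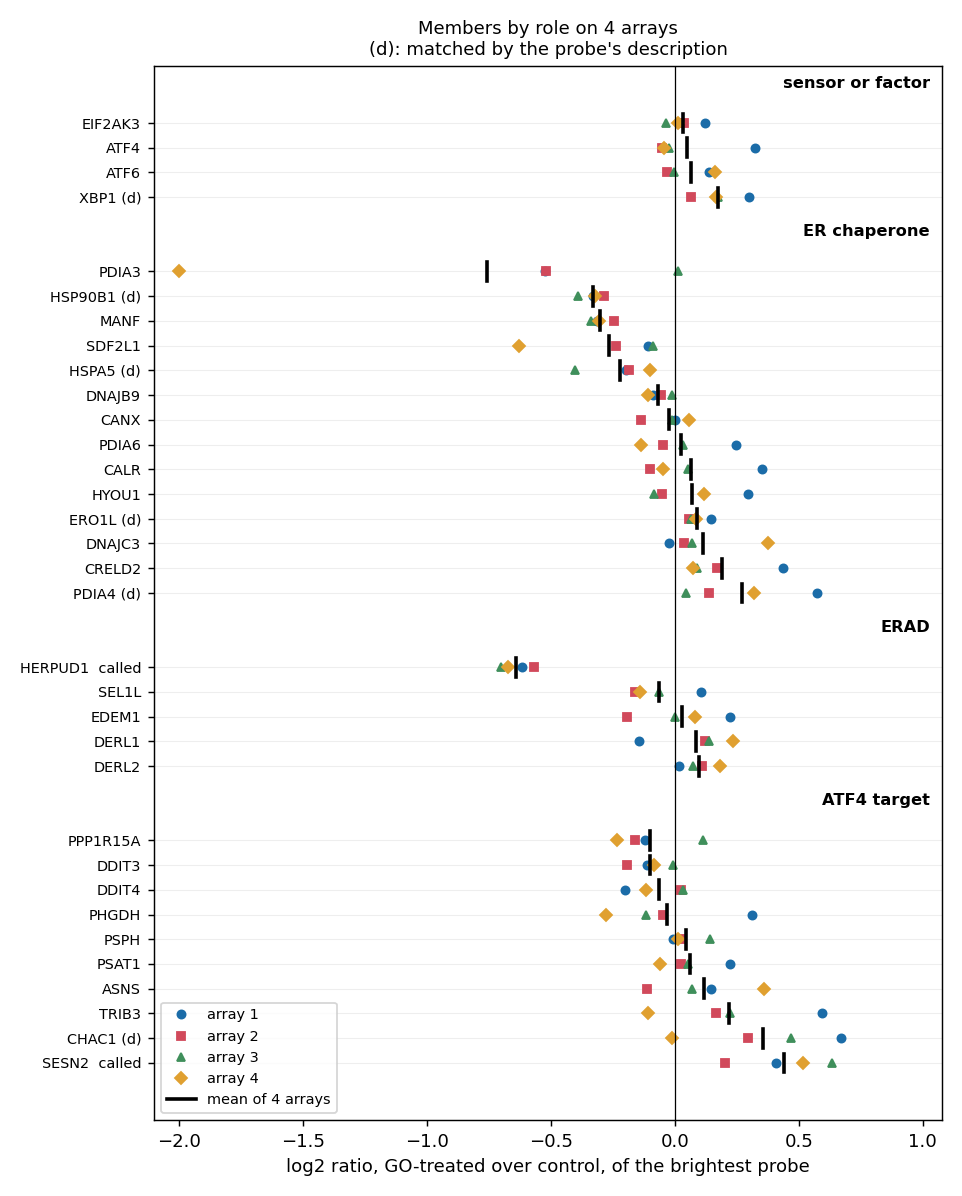
Ratios between GO-treated and control cells on the log2 scale (x axis) for the 33 tested genes, by role (rows), with a symbol for each of the 4 arrays and a bar at their mean. *HERPUD1* and *SESN2* were called changed, and *PDIA3* spans the widest range, from -2.0 to 0.01. Array 1 lies to the right of the other arrays for many of the genes, *ATF4*, *CALR*, *TRIB3* and *PHGDH* among them.

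The first role is that of the sensors and the factors they activate. *EIF2AK3*, the kinase that phosphorylates eIF2alpha, had ratios of 0.12, 0.04, -0.03 and 0.01 on arrays 1 to 4. The ratios of *ATF6*, a membrane-bound factor released by cleavage, were 0.14, -0.03, 0.00 and 0.16. Neither gene had one sign on all arrays. *ATF4* itself stood at 0.32 on array 1 and at -0.05, -0.02 and -0.04 on arrays 2 to 4, so that its mean of 0.05 ± 0.18 (SD, n = 4; adjusted p = 0.687) rests on array 1. After median centring without lowess it was 0.32 (adjusted p = 0.0189), under the fold threshold. *XBP1*, matched by description, was higher on all 4 arrays, with 0.30, 0.07, 0.18 and 0.17, a mean of 0.18 ± 0.09 (adjusted p = 0.0940). Its probe does not tell the spliced from the unspliced messenger, as far as the files describe it. *ERN1*, which encodes the nuclease that splices it, was not well above background on any array in either channel and has no ratio here. Of the 3 genes matched by name and tested by limma, 0 were called, and 0 had an unadjusted p of at most 0.05, with limma or with a plain one-sample test. In limma 8.72% of all named genes were called and 34.8% had such an unadjusted p.

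The second role is that of chaperones and folding enzymes of the ER. Of 14 genes, 10 were matched by name and tested, 5 with a mean above and 5 with a mean below 0, and the median was 0.00. In limma 0 of the 10 were called, beside 8.72% of all named genes. An unadjusted p of at most 0.05 was met by 4 of the 10 in limma (1 in the plain one-sample test), and by 34.8% of all named genes in limma. The steadiest change was that of *MANF*, a small protein of the ER lumen that is also secreted. Its ratios were -0.31, -0.24, -0.34 and -0.31. All 4 arrays were thus within a narrow range below 0, with a mean of -0.30 ± 0.04 (SD, n = 4), a 95% confidence interval of -0.43 to -0.17 and an adjusted p of 0.0165 (limma), and the fold of 1.23 was under the threshold of 1.3. *HSP90B1*, the HSP90 chaperone of the ER, matched by description, gave a like picture with -0.33, -0.28, -0.39 and -0.32, a mean of -0.33 ± 0.04 (adjusted p = 0.0128) and a fold of 1.26. Both directions depended on the dye normalization: with each array only centred on its median and no lowess, *MANF* turned to 0.35 (adjusted p = 0.0177) and *HSP90B1* at 0.06 (adjusted p = 0.567). After normexp and loess *MANF* was at -0.09 (adjusted p = 0.164) and *HSP90B1* at -0.30 (adjusted p = 0.00626). Without array 2, 3 or 4 the adjusted p of *MANF* was 0.0688, 0.0740 and 0.0532, and that of *HSP90B1* without array 2 or 3 was 0.0595 and 0.0611. With median centring the median of the 1379 tested probes with a mean log2 signal of 14 or more moved from -0.05 to 0.43, and that of all tested probes from 0.00 to 0.03.

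*HSPA5* encodes BiP, the ER's HSP70 chaperone and the usual marker of the response. Its brightest probe, matched by description, had ratios of -0.20, -0.18, -0.40 and -0.10, with a mean of -0.22 ± 0.13 (SD, n = 4; adjusted p = 0.0704). The second probe is printed here because its mean of -0.32 ± 0.13 had an adjusted p of 0.0266, at a fold below the threshold. It lies at chr25:9592046-9592105 (EquCab1, plus strand), and reads 5′ to 3′
HSPA5: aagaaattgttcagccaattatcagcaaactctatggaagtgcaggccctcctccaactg
Both probes were lower on all 4 arrays. Centred on the median without lowess, the brightest probe was at 0.14 (adjusted p = 0.260).

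*PDIA3*, a disulfide isomerase that works with the lectin chaperones, had the lowest mean of all tested genes in the list, -0.76, but also the widest spread (SD 0.86, n = 4). Its ratios were -0.52, -0.52, 0.01 and -2.0, and the adjusted p was 0.122. The processed signals of its probe were 25084, 24538, 6373 and 20963 in control cells and 17465, 17136, 6425 and 5246 in GO-treated cells. On array 3 both channels were therefore low, and on array 4 only the GO channel was. Without array 4 the mean ratio was -0.34 (adjusted p = 0.118), and without array 3 it was -1.01 (adjusted p = 0.0978). The cause of these low signals was not tested. *SDF2L1*, a partner of the DNAJ chaperones of the ER, was lower on all 4 arrays, with -0.11, -0.23, -0.09 and -0.63, and a mean of -0.26 ± 0.25 (adjusted p = 0.112).

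Among the other chaperones, *CRELD2* was higher on all 4 arrays, at 0.44, 0.17, 0.09 and 0.07, with a mean of 0.19 ± 0.17 (adjusted p = 0.131). It encodes an ER protein with disulfide isomerase activity. Its 5 tested probes start at neighbouring bases of the transcript, so that they measured the same stretch, and lay between 0.14 and 0.19. *DNAJB9*, a co-chaperone of BiP induced through XBP1, had ratios from -0.11 to -0.01. The lectin chaperones *CALR* and *CANX* had means of 0.07 and -0.02, *PDIA6* of 0.02, *HYOU1*, a large HSP70-type chaperone, of 0.07, and *DNAJC3*, an inhibitor of eIF2alpha kinases, of 0.12, with adjusted p between 0.343 and 0.856 for the 5 genes. None of these 5 had the same sign on every array. *ERO1L*, the oxidase that recharges disulfide isomerases, was matched by description and had ratios from 0.06 to 0.14 (mean 0.09 ± 0.04, adjusted p = 0.287).

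For *PDIA4*, another disulfide isomerase matched by description, the direction depended on the place of the probe. Of its 5 tested probes, 3 overlap in one place of the transcript and had means of 0.27 to 0.32, and 2 overlap in another place and had means of -0.18 and -0.15. A probe from each place is printed, since the places disagree in sign. The bases shared by the overlapping probes of a place, 20 bases in the first and 59 in the second, are in capitals, and the probes lie at chr4:90572180-90572239 and chr4:90560824-90560883 (EquCab1, minus strand).
PDIA4 first place: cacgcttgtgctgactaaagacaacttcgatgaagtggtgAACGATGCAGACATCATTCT
PDIA4 second place: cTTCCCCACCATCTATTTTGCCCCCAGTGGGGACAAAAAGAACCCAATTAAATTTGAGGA
The brightest probe is of the first place, with 0.58, 0.14, 0.04 and 0.32 on the 4 arrays (mean 0.27 ± 0.23, adjusted p = 0.0953). The printed probe of the second place had -0.14, -0.15, -0.14 and -0.28. Each place had 1 sign on all 4 arrays, and none of the 5 probes was called (adjusted p of 0.0558 to 0.146).

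**Figure D2:**
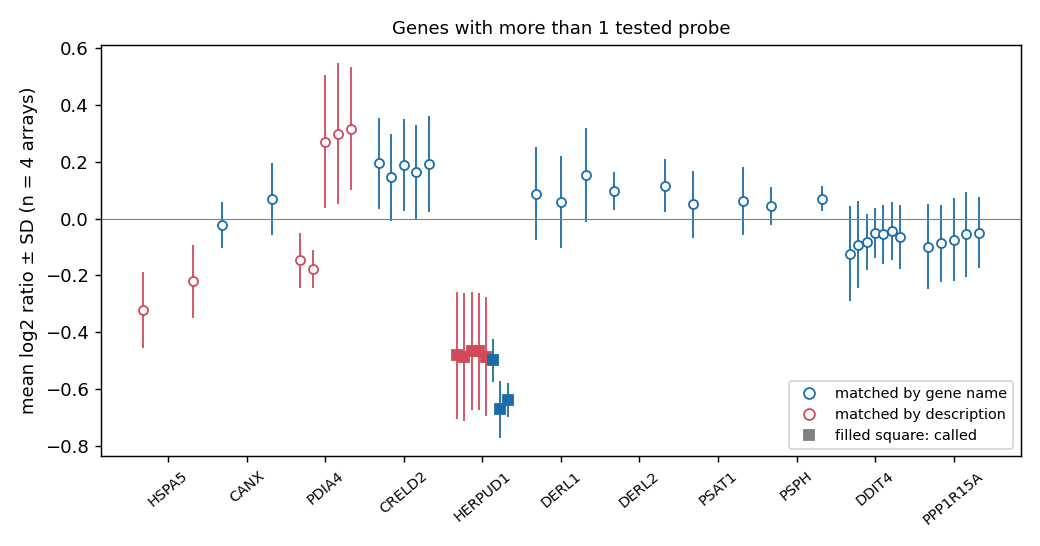
Mean log2 ratio of each tested probe (y axis, bars show the SD over 4 arrays) for the 11 genes with more than 1 tested probe (x axis). All 8 *HERPUD1* probes lie below 0 and are called, and *PDIA4* and *CANX* have probes on both sides of 0.

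The third role is ERAD, by which misfolded proteins are taken out of the ER and degraded. *HERPUD1*, which encodes a membrane protein of the ERAD complex and is strongly induced by ER stress, had ratios of -0.62, -0.57, -0.70 and -0.67. All 4 arrays were low and close together, with a mean of -0.64 ± 0.06 (SD, n = 4), a 95% confidence interval of -0.77 to -0.50, a fold of 1.56 and, in limma with Benjamini-Hochberg adjustment, an adjusted p of 0.00274. The processed signals were 35163, 31684, 38542 and 32536 in control cells, and 22942, 21414, 23747 and 20420 in GO-treated cells. Every GO signal was below every control signal. Without each array in turn the mean stayed between -0.66 and -0.62, and all of these fits called it. After centring without lowess it was -0.25, with an adjusted p of 0.0456, and no longer reached the fold threshold. The 3 probes matched by name lie at chr3:9197703-9197811 (EquCab1), overlap in part, and had means from -0.67 to -0.50.

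A further 5 probes that the files describe as this gene lie at chr3:9197147-9197210 (EquCab1, plus strand), outside the stretch of the first 3. They bear on whether the fall was a matter of one stretch of the messenger, so 1 of them is printed, with the 56 bases that all 5 share in capitals.
HERPUD1: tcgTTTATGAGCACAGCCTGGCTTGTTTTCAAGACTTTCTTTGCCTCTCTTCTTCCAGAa
The 5 probes had means from -0.49 to -0.47, and all 5 were called, with adjusted p from 0.0163 to 0.0189. On array 1 they were less low (-0.19 to -0.17) than on arrays 2 to 4 (-0.67 to -0.45), while the 3 probes matched by name were between -0.63 and -0.43 on array 1. The difference between the 2 stretches on array 1 was not tested.

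None of the other tested ERAD genes of the list was called. *SEL1L*, the adaptor of the ERAD ubiquitin ligase, had a mean of -0.06 ± 0.12 (adjusted p = 0.532). The ligase itself, *SYVN1*, was well above background on 1 array in control cells and on 0 in GO-treated cells and was not tested. *EDEM1*, which takes glycoproteins to ERAD, had a mean of 0.03 ± 0.17 (adjusted p = 0.826). *DERL1* and *DERL2*, of the channel through which proteins leave the ER, had means of 0.09 ± 0.16 (adjusted p = 0.455) and 0.10 ± 0.07 (adjusted p = 0.278). *DERL2* was higher on all 4 arrays, with 0.02, 0.11, 0.08 and 0.18. Of the 5 ERAD genes tested, 1 was called and the median was 0.03, while 8.72% of all named genes were called.

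**Figure D3:**
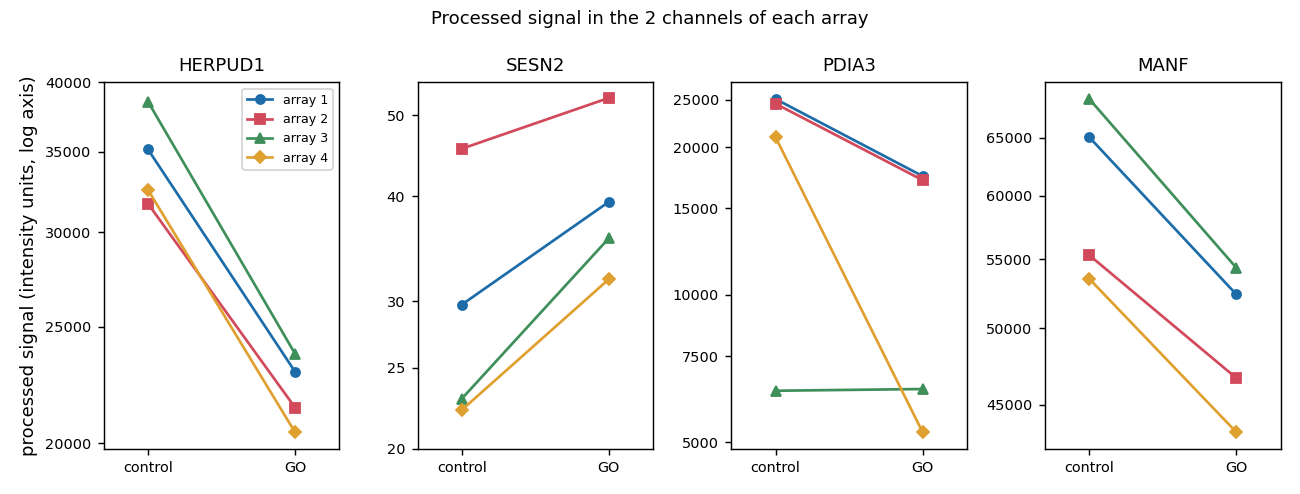
Processed signal (y axis, log scale) in control and GO-treated cells (x axis) for 4 genes, with a line for each array. All lines fall for *HERPUD1* and *MANF* and rise for *SESN2*, whereas for *PDIA3* both channels of array 3 and the GO channel of array 4 are low.

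The fourth role is that of ATF4 targets, of which 9 were matched by name and tested. *SESN2*, a leucine-binding inhibitor of mTORC1 induced by several stresses, had ratios of 0.41, 0.20, 0.64 and 0.52. Each array was above 0, and the mean was 0.44 ± 0.18 (SD, n = 4), a 95% confidence interval of 0.24 to 0.64, a fold of 1.36 and an adjusted p of 0.0174 (limma). Its signals were low. They were 29.7, 45.6, 22.9 and 22.3 in control cells and 39.4, 52.4, 35.7 and 31.9 in GO-treated cells, and in the GO channel the probe was well above background on 3 of the 4 arrays. Signals of the channels thus overlap between arrays, and with the array left out of the model as a block the adjusted p was 0.309. The call was also lost after normexp and loess (0.08, adjusted p = 0.316), after median centring (0.33, under the fold threshold) and without array 3 (0.38, adjusted p = 0.0653). The only probe of the gene, at chr2:26089267-26092271 (EquCab1, minus strand), covers 3005 bases of the genome with its 60 bases, and is printed because a single call rests on it.
SESN2: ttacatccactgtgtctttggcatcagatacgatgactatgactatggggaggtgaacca

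*CHAC1*, which encodes an enzyme that breaks down glutathione and is induced through ATF4, was matched by description. Its ratios were 0.67, 0.30, 0.47 and -0.01, with a mean of 0.36 ± 0.29 (adjusted p = 0.0703). Arrays 1 to 3 were high and array 4 was not, and without array 4 the mean was 0.48 and was called (adjusted p = 0.0276). The probe lies at chr1:144944296-144944355 (EquCab1, minus strand) and is shown because its call depends on 1 array.
CHAC1: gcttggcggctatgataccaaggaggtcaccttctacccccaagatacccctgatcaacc
*TRIB3*, a pseudokinase that acts back on ATF4 signaling, had a like order of arrays, with 0.59, 0.17, 0.22 and -0.11, and a mean of 0.22 ± 0.29 (adjusted p = 0.207).

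None of 3 other stress genes downstream of ATF4 was called. *DDIT3*, which encodes the factor CHOP, was lower on all 4 arrays, with -0.11, -0.19, -0.00 and -0.08, and a mean of -0.10 ± 0.08 (adjusted p = 0.283). *PPP1R15A*, the phosphatase subunit that reverses the phosphorylation of eIF2alpha, had -0.12, -0.16, 0.11 and -0.23 (mean -0.10 ± 0.15, adjusted p = 0.374). *DDIT4*, an inhibitor of mTORC1, had a mean of -0.06 ± 0.11 (adjusted p = 0.525), and its 7 probes lay between -0.12 and -0.04. For 5 of these 7 probes, which overlap, array 1 was low, and for the other 2 it was above 0.

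The list holds 4 genes of amino acid synthesis, none of which was called. *ASNS*, asparagine synthetase, had 0.15, -0.11, 0.07 and 0.36 (mean 0.12 ± 0.20, adjusted p = 0.366). The 3 genes of the serine pathway, *PHGDH*, *PSAT1* and *PSPH*, had means of -0.03 ± 0.25, 0.06 ± 0.12 and 0.04 ± 0.07, with adjusted p of 0.849, 0.555 and 0.623. *PHGDH*, the first enzyme of that pathway, ran from 0.31 on array 1 to -0.28 on array 4. Over the 9 genes matched by name, 5 means were above and 4 below 0, with a median of 0.04.

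Chaperone and ERAD genes were also set against ATF4 targets on each array. The median over the 15 chaperone and ERAD genes was 0.00, -0.10, 0.00 and -0.05 on arrays 1 to 4, and that over the 9 ATF4 targets was 0.15, 0.02, 0.07 and -0.08. Medians of all tested probes were between 0.00 and 0.01 on every array. The difference, chaperones and ERAD minus ATF4 targets, was -0.14, -0.12, -0.07 and 0.04, a mean of -0.07 ± 0.08 (SD, n = 4). The ATF4 targets were thus the higher group on 3 of the 4 arrays. Between the medians over array means the difference was -0.02, and it changed sign with the filter on both channels (0.02, without *SESN2*) and without array 3 (0.01). With the genes matched by description these differences were -0.18, -0.12, -0.09 and 0.03. The median of chaperone and ERAD genes over the means of 4 arrays was 0.02, and changed sign without array 1 (-0.04).

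**Figure D4:**
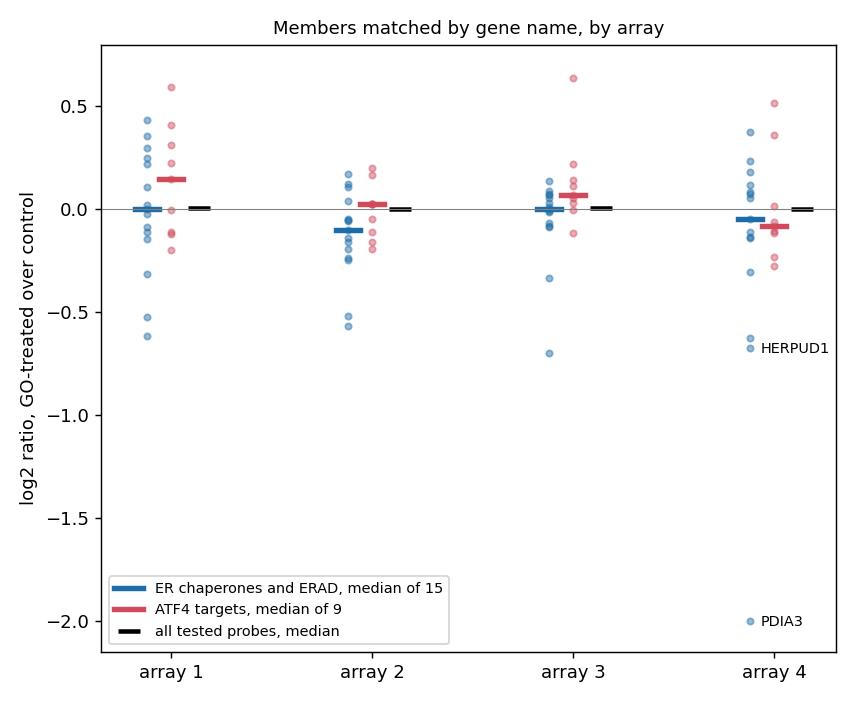
Log2 ratios on each of the 4 arrays (x axis) of the 15 chaperone and ERAD genes and the 9 ATF4 targets matched by name (points), with the median of each group and of all tested probes (bars). The median of the ATF4 targets is the higher one on arrays 1 to 3 and the lower one on array 4, and *HERPUD1* lies under the other genes of its group except *PDIA3* on array 4.

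The values of bright probes depended on the normalization, as did that of the dim probe of *SESN2*. Median centring moved the bright probes upward, as given above for *MANF*, whereas normexp and loess took the dim probe of *SESN2* from 0.44 to 0.08. After normexp background correction and loess, 15 of the 27 means were above 0, and 20 of them were when arrays were only median-centred. In the last setting *HERPUD1* was the only gene of the list with a ratio below 0 whose adjusted p was no higher than 0.05.

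**Figure D5:**
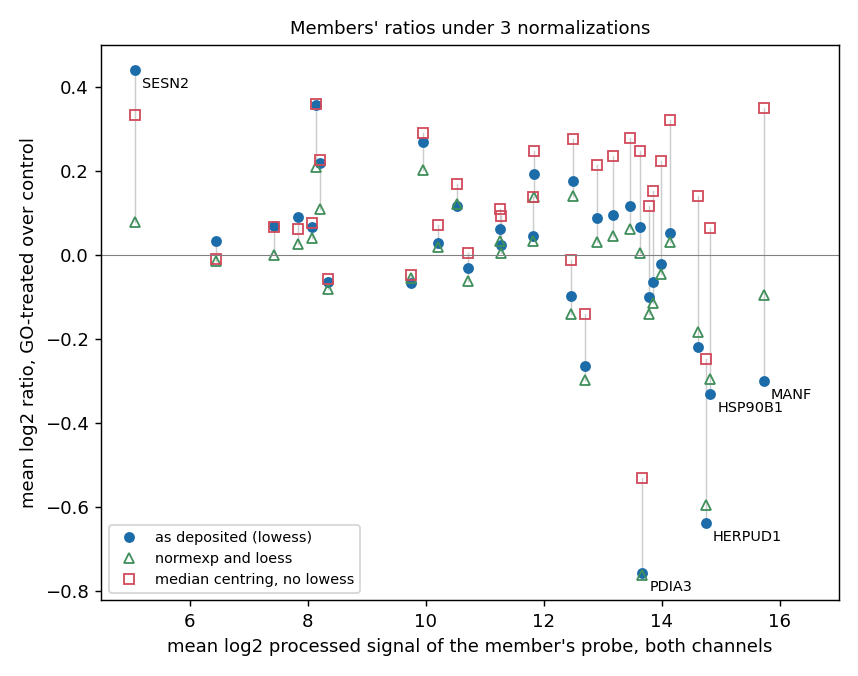
Mean log2 ratio of each tested gene (y axis) against the mean log2 signal of its probe (x axis) with the deposited lowess normalization, with normexp and loess, and with median centring alone, joined by a line for each gene. Toward high signals the squares of median centring lie above the other symbols, as for *MANF* (0.35 against -0.30), while *HERPUD1* stays below 0 in all 3.

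Other genes of the pathway, 107 in number, were taken from a list of folding enzymes, ER entry, ERAD, regulators and further ATF4 targets. Of these 90 were tested, and 4 were called, 2 higher and 2 lower in GO-treated cells, beside 8.72% of all named genes. The median was 0.08, with 62 means above and 28 below 0. An adjusted p of at most 0.05 without the fold threshold was met by 8 genes above and 2 below 0, and by 17.3% of all named genes. Of the 8, the 6 under the fold threshold were *GPT2* (0.37), *CTH* (0.32), *SSR2* (0.28), *UBE2J1* (0.28), *JDP2* (0.27) and *SSR3* (0.25), with adjusted p from 0.0147 to 0.0467, and for each of them this was above 0.05 without at least 1 of the arrays. *GPT2* was called without array 2 (0.42, adjusted p = 0.0427), and 3 of its 5 probes were called with all arrays. *SSR3* was called after median centring (0.65, adjusted p = 0.0041), while *JDP2* fell to 0.12 (adjusted p = 0.137) after normexp and loess. The highest of the 5 medians was that of the further ATF4 targets (0.10, 25 genes tested), with 0.26, 0.07, 0.16 and 0.02 on arrays 1 to 4. Of these 25 genes, 20 had a mean above and 5 a mean below 0. The lowest was *ATF3* (-0.20, adjusted p = 0.220), with a dim brightest probe that was not called and 1 of its 2 tested probes called.

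The 2 called higher were *OS9*, an ERAD lectin, and *NUPR1*, a small stress-induced nuclear protein. *OS9* had 0.50, 0.25, 0.42 and 0.60 (mean 0.44 ± 0.15, fold 1.36, adjusted p = 0.0124), and its call was lost after normexp and loess (0.13, adjusted p = 0.136) and after median centring (0.37, under the fold threshold). The probe of *OS9* was dim, with mean signals of 43.2 in control and 58.8 in GO-treated cells. *NUPR1* had 0.36, 0.21, 0.76 and 0.40 (mean 0.43 ± 0.23, fold 1.35, adjusted p = 0.0275), and its call was lost without any 1 of the arrays (adjusted p of 0.0536 to 0.0676). The 2 called lower were *VCP* and *EIF2AK2*. *VCP*, the ATPase that pulls ERAD substrates out of the membrane, had -0.17, -0.37, -0.56 and -0.49 (mean -0.40 ± 0.17, fold 1.32, adjusted p = 0.0208). It was no longer called without array 2, 3 or 4 (adjusted p of 0.0777, 0.0791 and 0.0590), nor after median centring (-0.21, adjusted p = 0.0707). *EIF2AK2*, the kinase PKR that senses double-stranded RNA and is induced by interferon, had -1.49, -0.53, -2.02 and -0.25 (mean -1.07 ± 0.83, adjusted p = 0.0458). Its arrays were all below 0 but far apart, and without array 1, 2 or 3 the adjusted p was 0.132, 0.0780 and 0.107. It was 0.0564 after normexp and loess and 0.0536 with array weights.

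Markers of cell types were read on the same arrays. Of 10 myogenic markers 7 had probes and all 7 were well above background in both channels on all 4 arrays. Of these, 5 were called lower with GO and 0 higher, and the median was -0.61. Of all 9072 named genes tested, 489 were called lower and 302 higher. After median centring *MYF5* (-0.94) and *NCAM1* (-0.54) were still called, *DES* (-0.33), *MYOG* (-0.36) and *MYH3* (-0.15) were not, and *ACTC1* turned from -0.33 to 0.69. Leaving out array 2 ended the calls of *MYOG* (adjusted p = 0.0649) and *DES* (adjusted p = 0.0545). *MYOG* was not called either without array 3 (adjusted p = 0.0544), with no block for the array (adjusted p = 0.323), or under normexp with loess (-0.35). Without this block the calls of *DES* (adjusted p = 0.114) and *NCAM1* (adjusted p = 0.0624) were lost as well. The calls of *MYOG*, *DES* and *NCAM1* also ended without the filter on dim probes (adjusted p of 0.0536 to 0.079). They ended in the plain one-sample test too, as did that of *MYH3* (adjusted p = 0.0723). Of the 2 probes of *MYOG*, 1 was called. The summed processed signal of the 7 markers was 245671, 296101, 327562 and 228253 in control cells and 207705, 217729, 203694 and 152436 in GO-treated cells, with the highest signal from the probe of *ACTC1*, a cardiac and fetal muscle actin, and the sums are carried by this probe and that of *MYH3*. No probe was named *PAX7*, *CDH15* or *TMEM8C*. Among fibroblast markers 6 of 8 were tested, 1 was called higher (*PDGFRA*), *POSTN* was lower on all 4 arrays without being called (-0.47, adjusted p = 0.0512, with 2 of its 4 probes called), and the median was 0.06, with summed signals of 209406, 206746, 223965 and 157843 in control and 196617, 200756, 209848 and 163822 in GO-treated cells, with the highest signal from the probe of *COL3A1*. Of the 2 probes of *DCN*, 1 was called, though not the brightest (0.04, adjusted p = 0.681). The probe of *PDGFRA* was dim, and its call was lost after normexp and loess (0.37, under the fold threshold) and without array 2 (0.87, adjusted p = 0.0741). All 4 adipocyte and all 5 endothelial markers on the array were well above background on 0 arrays in control cells, as were 3 of 6 leukocyte markers. Of the other leukocyte markers, *CD14* and *CD68* were well above background on all 4 arrays, with ratios of 0.11 and -0.28 (adjusted p = 0.251 and 0.0597), and *CSF1R* on 1. With the deposited normalization 5 of the 7 myogenic markers were thus called lower with GO, as was *HERPUD1*. The other 2, *MYOD1* (-0.36, adjusted p = 0.0905, and 0.11 on array 1) and *ACTC1* (-0.33, adjusted p = 0.046, under the fold threshold), had means below 0 without a call. The part of these 7 markers in the fall of *HERPUD1* was not tested. In bulk RNA, fewer cells of a type and less RNA per cell cannot be told apart.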

How the data were processed

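Each of 4 two-color horse arrays was scanned and processed by the authors with Feature Extraction (version 10.10.1.1 per the file headers, while the methods state another version). The deposited log10 ratios compare Cy5 with Cy3 after processing, with background subtracted, spatial trends taken out and dyes normalized (linear, then lowess), and the deposited intensity values are mean, background, background-subtracted and processed signals of each channel. A series table of the same ratios was not used, including its 4 columns of values. For the present values the ratios were converted to log2, control spots (1417 per array) and outlier spots (10 to 19 per array) were left out, and spots of a probe were averaged. Probes well above background on all 4 arrays in the GO or in the control channel were kept (26832 of 43603). Signal over local background had medians of 3.66 to 4.22 for control and 2.85 to 4.37 for GO.

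Two-sided tests of the mean log2 ratio came from limma 3.58.1 under R 4.3.3, as an intercept model with eBayes and Benjamini-Hochberg adjustment over all probes kept. Confidence intervals of 95% are those of limma. Tables were read with data.table (version 1.17.8) and figures drawn with matplotlib (version 3.10.9). GO and control cRNA of a replicate shared an array. After each channel's mean over arrays was taken off, the channels of the same array had correlations of 0.605, 0.862, 0.730 and 0.484 on arrays 1 to 4, against -0.543 to 0.238 between different arrays, over 26831 probes.

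The genes, their roles and the other lists were chosen with earlier results of these data known. All 35 genes of the list are named by role, and from the other pathway genes those called with one sign on all 4 arrays, at most 5 in each direction, by size, and added to these all others with an adjusted p of at most 0.05. Marker genes and single probes were picked out after their values were seen. Gene names are those of the array files. *HSP90B1* carried the name GRP94, and the RefSeq gene table gives its transcript the symbol *HSP90B1*. Positions of probes were read from the array files (EquCab1). Promoters and coding parts were not analysed here. All arrays were on 1 slide, which leaves no slide effect to test.

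Alternatives were normexp (offset 50) with loess, median centring without lowess, no filter on dim probes, a filter on both channels, a plain one-sample test, channels without the array, array weights, each array left out, and the mean over all probes of a gene.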

Additional observations from a re-analysis of the deposited data

Results flagged for a closer look

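For *ATF4* the log2 ratio of array 1, 0.32, lay far from those of the other arrays, which were between -0.05 and -0.02. The gap was 0.919 of the whole range, above the critical value of Dixon's test for 4 samples. The test was run on the brightest probe of each of the 35 genes, and 1 passed, and chance passes about 1 in 20. Over the 27 tested genes matched by name, the median was 0.11 on array 1 and -0.05, 0.01 and -0.05 on arrays 2 to 4. The cause of the value on array 1 was not tested.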

How the results depend on the processing

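The 33 tested genes of the list had 389 values under alternatives, of which 375 kept the call (adjusted p and fold together) and their direction or, with an adjusted p above 0.05 in both fits, moved across 0 by less than the SD between arrays. The adjusted p alone crossed 0.05 in some of these, as for *MANF* after normexp and loess (0.164) and for *ATF4* (0.0189), *XBP1* (0.0284) and *CRELD2* (0.0407) after median centring. The 2 genes called became 1 after normexp and loess, without the filter, with the filter on both channels (*SESN2* left out), under the plain test and without the array as a block, and 0 after median centring. With an array left out the count was 1 to 2. The *HERPUD1* call was lost in 1 of 12 alternatives (median centring, -0.25) and the *SESN2* call in 6 of 11. After median centring without lowess, *MANF* (0.35), *HSP90B1* (0.0635) and *ACTC1* (0.69) changed sign, and after normexp and loess *ACTC1* did (0.13). Of genes with an adjusted p above 0.05 in both fits, *HSPA5* (0.14), *CANX* (0.22), *DDIT4* (0.15), *PPP1R15A* (0.12) and *PHGDH* (0.01) turned positive after median centring, and *EIF2AK3* turned negative after it and after normexp and loess (-0.01 in both). The median of chaperone and ERAD genes moved from 0.02 to 0.0923 after median centring and to -0.0363 with array weights, and lay between -0.0354 and 0.0476 with an array left out. That of ATF4 targets (0.04) was 0.138 after median centring, 0.00616 with the filter on both channels and 0.00647 to 0.0502 with an array left out. Of the other pathway genes, 4 called became 2 after normexp and loess and 0 without the filter, under the plain test and without the block, and 2 to 2 with an array left out, while median centring called 6 (5 higher, 1 lower) and the mean over all probes 5 (3 higher, 2 lower).

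Of all probes, 2399 were called, 1297 after normexp and loess, 908 without the filter, 147 under the plain test, 923 without the replicate block and 1566 to 2430 with an array left out. Median centring called 3390, 1740 higher and 1650 lower, against 894 and 1505. The cause of these differences was not tested. Signal over background, low for *SESN2*, limits its ratio.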
